A study of Mus musculus with 4 samples.

Results

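The genes described here encode the heat shock proteins and chaperonins of the mouse. They were the protein-coding genes of the count table whose symbol begins with Hspa, Hspb, Hspd1, Hspe1, Hsph1 or Hsp90, is Dnaja, Dnajb or Dnajc followed by a number, or names a subunit of the cytosolic chaperonin (Cct2 to Cct8, Tcp1). The rule found 77 of the 21470 genes in the table, of which 15379 were protein coding. It used names only and no measured value. The prefix also takes in genes that are not chaperones themselves, such as Hspbp1, whose protein releases nucleotide from HSP70, and Hspbap1, which binds a small heat shock protein.

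Molecular chaperones bind unfolded proteins and release them in cycles driven by ATP. In the cytosol, J-domain proteins bring clients to HSP70, HSP110 exchanges its nucleotide, HSP90 matures signalling proteins, and the ring-shaped chaperonin TRiC folds actin and tubulin. The endoplasmic reticulum (ER) and the mitochondria have HSP70 and J-domain proteins of their own, the ER an HSP90 and the mitochondria a chaperonin. Many cytosolic and mitochondrial chaperone genes are targets of heat shock factors, and many ER chaperone genes are targets of the unfolded protein response.

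Polyadenylated RNA was measured in wild-type mouse embryos from B6D2F1 fathers and ICR mothers, at times labelled E4 and D10. Tissue labelled ICM (inner cell mass) is the embryonic side of the blastocyst, and tissue labelled TE (trophectoderm) is its extra-embryonic side. Each of the 4 groups (E4 ICM, E4 TE, D10 ICM, D10 TE) held 5 barcoded libraries, mixed within the group before PCR, so the pool cannot be told apart from the group. The E4 libraries came from 5 litters, 2 with and 3 without a zona pellucida, and the D10 libraries from 5 other litters, all without. The title speaks of before and after diapause, the reversible arrest of the blastocyst before implantation, and a list of barcodes deposited with the counts places E4 before it, whereas the protocol speaks of diapause embryos for all samples. These sources conflict on the state of E4.

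The libraries held between 144276 and 1010354 counts and read the 3′ ends of transcripts. The labelled tissues were checked against markers. The summed level of 5 epiblast markers lay at 1034 to 2200 CPM in E4 ICM, at 465 to 864 CPM in D10 ICM and at 4.01 to 28.8 CPM in TE libraries, where CPM is the usual count scaled to library size, here with each library's size adjusted by the TMM method. All 6 trophectoderm markers had counts in both ICM groups too. Their sums were 1526 to 2358 CPM in E4 ICM and 2391 to 4836 CPM in D10 ICM, against 5114 to 7852 CPM in TE libraries. The sum of 5 primitive endoderm markers lay at 1154 to 2611 CPM in E4 ICM and at 4625 to 6953 CPM in D10 ICM. In the TE it reached 222 CPM in E4 TE replicate 5 and 310 CPM in D10 TE replicate 1. Of the 5 epiblast markers, 4 fell in the ICM over time (Fgf4, Nanog, Tdgf1 and Utf1). Of the primitive endoderm markers, Col4a1 and Sparc rose there, while Sox17, Gata4 and Pdgfra did not pass the test described below. Of the trophectoderm markers, Gata3, Krt18 and Tfap2c rose there and the other 3 did not pass. The part of these cell types in the ICM changes described here was not tested. Markers of blood and uterine cells, 7 of the 10 listed, summed to 65.3 to 182 CPM in E4 ICM, 172 to 316 CPM in D10 ICM, 127 to 311 CPM in E4 TE and 406 to 555 CPM in D10 TE, where Hbb-bs, Ptprc, Ltf and Pgr were at 0. Only Wfdc2 of these 7 was high enough for the test described below, and it rose in the TE over time. The granulosa and cumulus markers Amh, Foxl2 and Inha were not in the count table, so these cells were not checked.

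A filter on low counts left 6943 genes, among them 50 of the 77 chaperone genes. Of these 50, 41 reached the filter's level (23.7 CPM) on average in all 4 groups, 5 in only 2 groups and 1 in only 1. The other 27 were too low for the test, with at most 133 counts over all 20 libraries, and Dnajb13 and Hspa1l had 0 counts. The heat-inducible cytosolic HSP70 genes were among the low ones, with 13 counts of Hspa1a and 113 of Hspa1b over all libraries. Hspa1b lay at 0 to 47.8 CPM in E4 TE and at 4.75 to 9.45 CPM in D10 ICM. Near-identical sequence may divide counts between Hspa1a and Hspa1b, which was not tested.

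Across time in the ICM, 14 of the 50 tested chaperone genes were lower at D10 and 3 were higher (edgeR's quasi-likelihood test, Benjamini-Hochberg adjusted p under 0.05 over all 6943 genes). Of all genes tested, 9.97% were lower and 13.7% higher. The median log2 difference of the 50 was -0.32, against 0.00 over all genes. In the TE 9 were lower and 4 higher, where 9.89% of all genes were lower and 11.9% higher, with medians of -0.27 and 0.02. The compartments are described in turn, with log2 differences given ± their standard error (SE). As these are bulk samples, fewer cells of a type and less RNA per cell cannot be told apart.

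**Figure D1:**
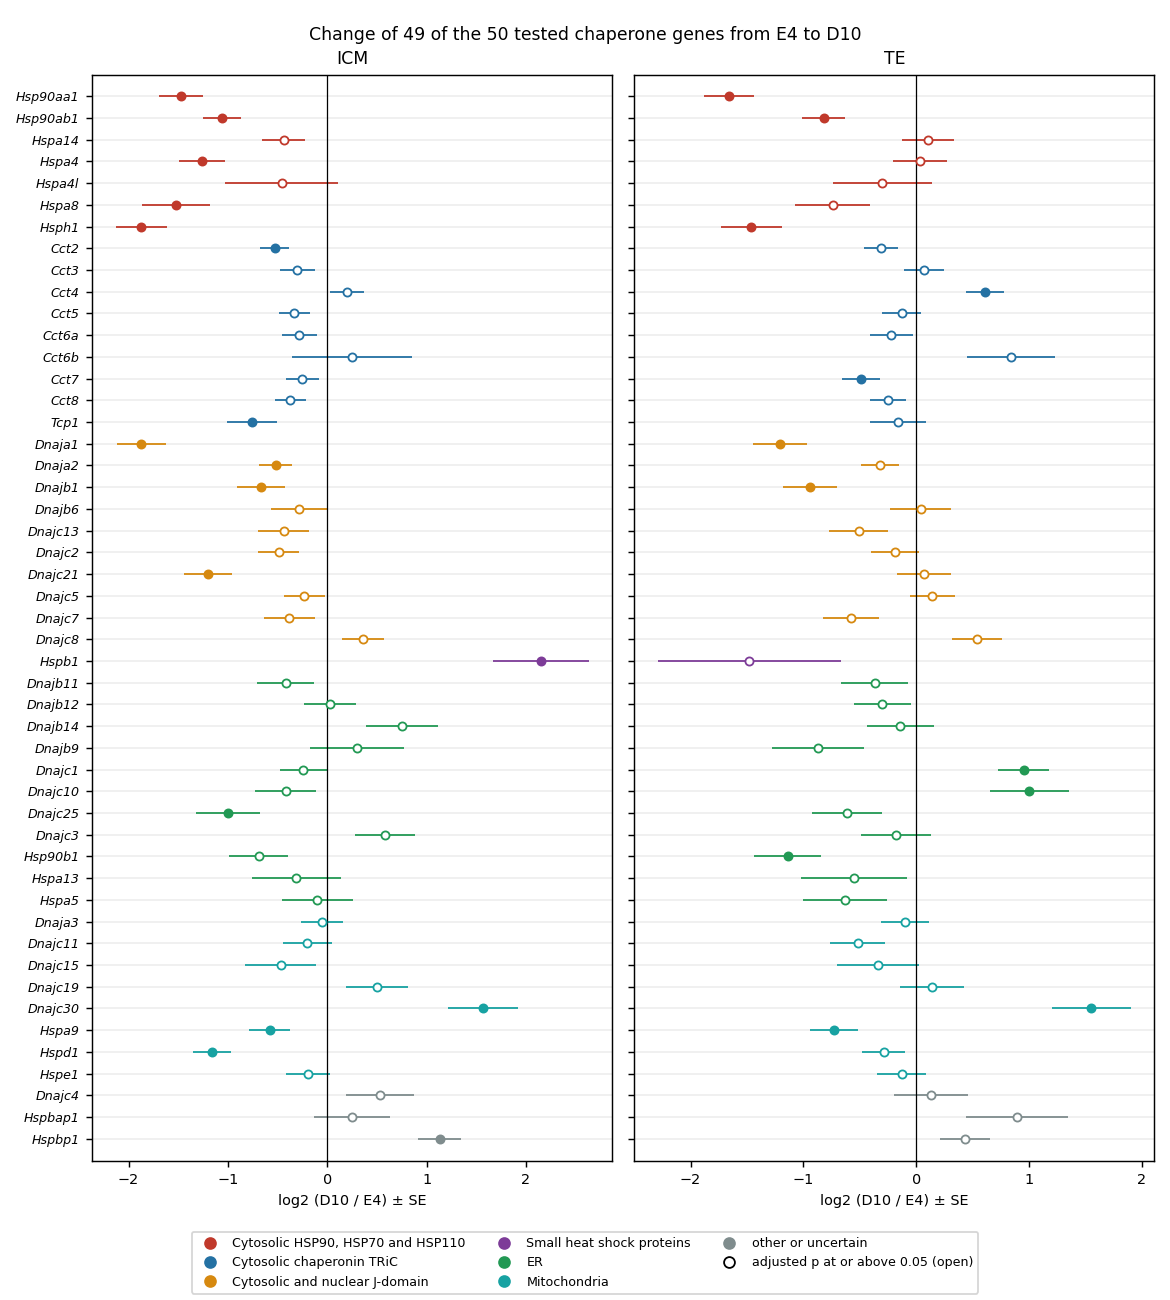
Log2 difference between D10 and E4 (horizontal axis, ± SE) of 49 of the 50 tested chaperone genes, grouped by compartment, in the ICM (left) and the TE (right), with filled points for an adjusted p under 0.05. The filled cytosolic HSP90, HSP70 and HSP110 points lie between -1.87 and -1.06 in the ICM and between -1.66 and -0.82 in the TE.

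Among the cytosolic HSP90, HSP70 and HSP110 genes, both cytosolic HSP90 genes and Hsph1 fell in both tissues. Of the 7 tested of 11 in the list, 5 fell in the ICM (Hsp90aa1, Hsp90ab1, Hspa4, Hspa8 and Hsph1) and 3 in the TE (Hsp90aa1, Hsp90ab1 and Hsph1), and none rose. The median log2 difference was -1.26 in the ICM and -0.74 in the TE. The summed level of the 11 genes was 9300 ± 619 CPM (SD, n = 5) in E4 ICM and 3840 ± 272 CPM in D10 ICM, 41.3% of the earlier level. In the TE it was 8548 ± 1308 CPM at E4 and 3993 ± 631 CPM at D10, 46.7% of the earlier level. The lowest E4 library of either tissue had 6489 CPM and the highest D10 library 4919 CPM, so the times did not overlap. Marker sums moved with these changes. In the ICM the epiblast sum was lower, and the primitive endoderm and trophectoderm sums higher, in every D10 than in every E4 library. In the TE the blood and uterine sum was 127 to 311 CPM at E4 and 406 to 555 CPM at D10. Of its 7 markers, Hbb-bs, Ptprc, Ltf and Pgr had no count in D10 TE. Only Wfdc2 was high enough for the test, and it rose. The part of the cells with these markers in the result was not tested. In TE libraries the epiblast sum was at most 28.8 CPM at either time.

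Hsp90aa1, the inducible cytosolic HSP90 (GRCm38 chromosome 12, 110690605 to 110702728), had 3506, 3056, 2655, 3062 and 3419 CPM in E4 ICM replicates 1 to 5 and 761, 1404, 1224, 1116 and 1152 CPM in D10 ICM. The TE libraries had 4350, 4774, 3513, 3616 and 2533 CPM at E4 and 1077, 1278, 857, 1750 and 997 CPM at D10. No D10 library reached any E4 library. The log2 difference was -1.47 ± 0.22 in the ICM (adjusted p = 4.41e-05, edgeR) and -1.66 ± 0.22 in the TE (6.33e-06). Hsp90ab1, the constitutive cytosolic HSP90 (chromosome 17, 45567775 to 45573271), had 4508, 3753, 3824, 3747 and 4429 CPM in E4 ICM and 2396, 1697, 2210, 1445 and 1960 CPM in D10 ICM. Its TE values were 4080, 3795, 3349, 3562 and 3248 CPM at E4 and 2113, 1495, 2730, 1958 and 1896 CPM at D10. The times did not overlap here either, and Hsp90ab1 fell by 1.06 ± 0.19 in the ICM (0.000259) and by 0.82 ± 0.19 in the TE (0.00259), both on the log2 scale.

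Hsph1 encodes HSP110, the nucleotide exchange factor of HSP70, and differed both in time and between the tissues. It had 869, 705, 880, 744 and 761 CPM in E4 ICM and 285, 142, 172, 221 and 269 CPM in D10 ICM. Its TE libraries had 184, 203, 195, 365 and 207 CPM at E4, with replicate 4 above the rest, and 93.1, 57.1, 68.2, 152 and 49.2 CPM at D10. The times did not overlap within either tissue. The fall was -1.87 ± 0.26 in the ICM (adjusted p = 2.06e-05, edgeR) and -1.46 ± 0.27 in the TE (0.000352), and the difference between these changes did not pass (-0.41 ± 0.38, 0.598). ICM exceeded TE by 1.75 ± 0.26 at E4 (1.64e-05) and by 1.34 ± 0.27 at D10 (0.00057), with some overlap at D10, where the lowest ICM library had 142 and the highest TE library 152 CPM.

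Hspa8, the constitutive cytosolic HSP70, had 919, 802, 966, 986 and 697 CPM in E4 ICM and 437, 147, 216, 473 and 246 CPM in D10 ICM, with no overlap. Its TE values overlapped, at 783, 589, 852, 902 and 272 CPM at E4 and 509, 269, 227, 727 and 311 CPM at D10. The ICM difference was -1.52 ± 0.34 (adjusted p = 0.00199, edgeR), and the TE difference of -0.74 ± 0.33 did not pass (0.108). The 3′ end of Hspa8 matches 7 annotated copies with 1425 counts together, beside 4405 of Hspa8. When the counts of these copies were added, an alternative chosen after the data were seen, the TE difference passed at -0.70 (0.04) and the ICM difference was -1.33 (0.000368). The TE difference also passed with no count filter (-0.75, 0.0313).

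Hspa4, an HSP110 relative, changed differently in the tissues. It had 235, 272, 303, 256 and 211 CPM in E4 ICM, above every one of the other libraries. The remaining groups overlapped, with 65.0 to 166 CPM in D10 ICM, 64.4 to 149 CPM in E4 TE and 81.6 to 152 CPM in D10 TE. It fell by 1.26 ± 0.23 in the ICM (adjusted p = 0.000359, edgeR), while the TE difference was 0.03 ± 0.24 (0.951). The test of the difference between these changes, the interaction, gave -1.29 ± 0.33 (0.0219). That last call was lost without D10 ICM replicate 2 or D10 TE replicate 1 or 4 (adjusted p up to 0.0558) and without the zona litters (0.0603).

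**Figure D2:**
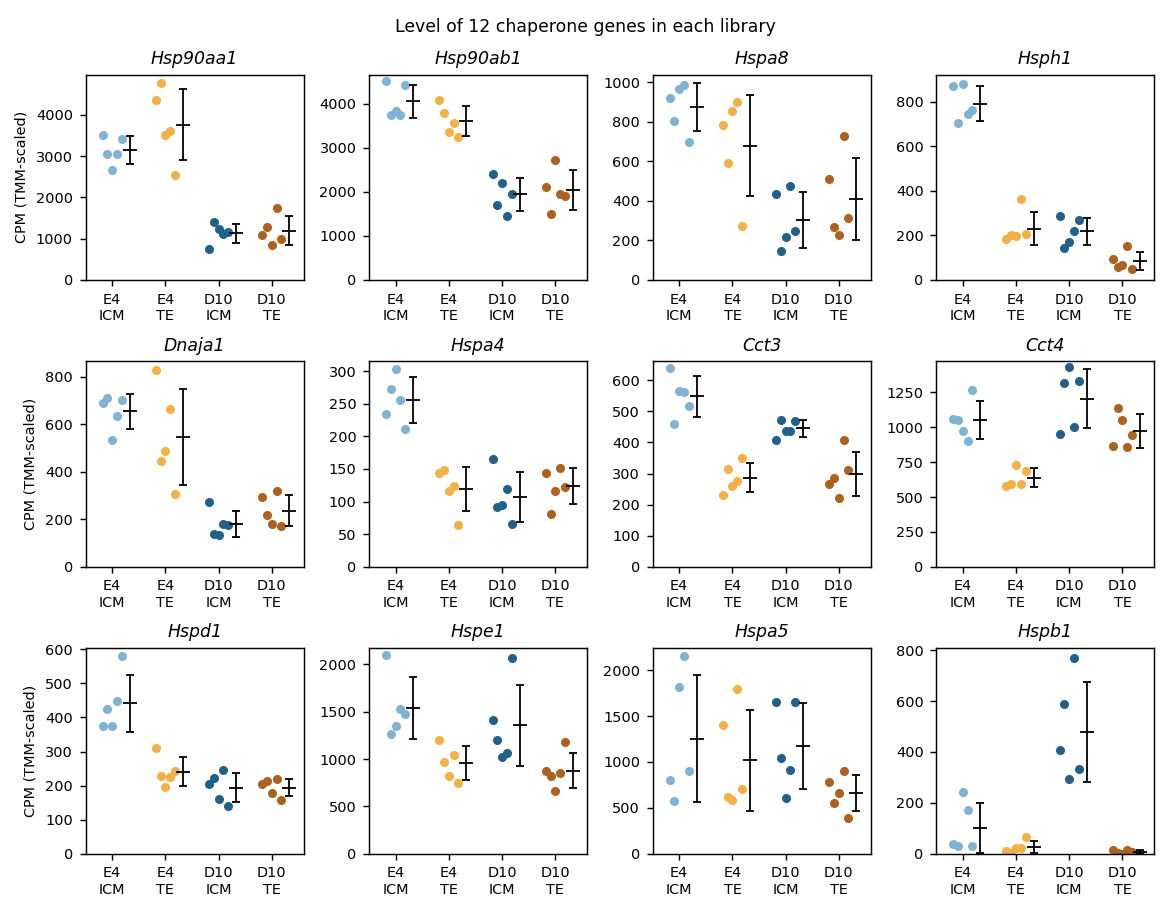
Level in CPM (vertical axes, each from 0) of 12 chaperone genes in each of the 5 libraries of the 4 groups (coloured points), with the mean ± SD (black). The HSP90 genes are lower in every D10 library than in every E4 library of either tissue, and Hspb1 is high in D10 ICM, at 294 to 769 CPM.

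The cochaperones that serve HSP90 and HSP70 were examined from lists of genes outside the family. Over time, 9.97% of all genes tested were lower and 13.7% higher in the ICM, and 9.89% and 11.9% in the TE. Counts from these small lists, here and below, are to be read beside those shares. Of 12 tested HSP90 cochaperones, 5 fell in the ICM (Stip1, Ahsa1, Ptges3, Fkbp4 and Nudc) and 4 in the TE (Stip1, Ahsa1, Ptges3 and Fkbp4), and 1 rose in each. Ahsa1, which stimulates the HSP90 ATPase, had 118 to 192 CPM in E4 ICM and 49.9 to 85.6 CPM in D10 ICM, a difference of -1.10 ± 0.22 (adjusted p = 0.000669, edgeR). In the TE it fell by 0.82 ± 0.21 (0.00643). Stip1, the scaffold that joins HSP70 to HSP90, fell by 1.00 ± 0.24 in the ICM (0.0035) and by 0.87 ± 0.24 in the TE (0.0106).

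Of 8 tested HSP70 cofactors, 1 rose and 2 fell in the ICM and 1 fell in the TE. Hikeshi, which carries HSP70 into the nucleus, fell in both, from 111 to 304 CPM to 71.4 to 101 CPM in the ICM (-1.23 ± 0.29, adjusted p = 0.00296, edgeR) and from 100 to 249 CPM to 29.2 to 79.2 CPM in the TE (-1.90 ± 0.30, 4.71e-05). Bag2, an HSP70 nucleotide exchange factor, went the other way in the ICM, from 0 to 11.6 CPM at E4 (7 counts in all) to 16.6 to 112 CPM at D10 (154 counts). Bag6, which guards newly made membrane proteins, fell by 0.92 ± 0.27 in the ICM (0.0147).

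Of the listed heat shock factors, Hsf1 and Hsf2 were tested, and Hsf4 was not in the count table. Hsf2 lay at 70.5 to 131 CPM in E4 TE, 50.7 to 67.3 CPM in D10 TE, 43.0 to 67.2 CPM in E4 ICM and 14.3 to 46.4 CPM in D10 ICM. It fell in the TE (-0.75 ± 0.23, adjusted p = 0.0205, edgeR) and was lower in ICM than in TE at E4 (-0.86 ± 0.24, 0.00799) and at D10 (-0.81 ± 0.25, 0.0198). Its ICM difference over time was -0.70 ± 0.26 (0.0568). Hsf1, the main factor of the heat response, gave -0.52 ± 0.29 in the ICM (0.208) and 0.09 ± 0.29 in the TE (0.924).

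The cytosolic and nuclear J-domain genes, the partners of HSP70, included 10 tested of 21. In the ICM 4 fell (Dnaja1, Dnaja2, Dnajb1 and Dnajc21), in the TE 2 fell (Dnaja1 and Dnajb1), and none rose. The Dnaja2 call (-0.52 ± 0.17, adjusted p = 0.0292, edgeR) was lost on leaving out any of D10 ICM replicates 1, 2, 3 and 5 and E4 ICM replicates 1, 4 and 5 (up to 0.0859), with no count filter (0.234) and without the zona litters (0.0833). Dnaja1 had 691, 710, 533, 633 and 701 CPM in E4 ICM and 271, 140, 133, 179 and 176 CPM in D10 ICM, without overlap. TE libraries had 829, 444, 489, 663 and 308 CPM at E4 and 292, 216, 181, 320 and 172 CPM at D10, where the lowest E4 library (replicate 5) lay under the highest of D10. It fell by 1.87 ± 0.25 in the ICM (adjusted p = 1.26e-05, edgeR) and by 1.21 ± 0.24 in the TE (0.000734).

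Dnajb1, which with Hspa8 and HSP110 dissolves aggregates, had 125 to 292 CPM in E4 ICM and 83.1 to 139 CPM in D10 ICM. In the TE it had 149 to 331 CPM at E4 and 95.8 to 150 CPM at D10, so the times overlapped in both tissues. The TE difference was -0.94 ± 0.24 (adjusted p = 0.005, edgeR). The ICM difference of -0.67 ± 0.24 (0.045) was lost without any 1 of 15 of the 20 libraries (adjusted p up to 0.16) and passed without E4 ICM replicates 2 and 5, D10 ICM replicate 4 and E4 TE replicates 2 and 3, each left out singly. It was also lost with DESeq2 (0.0564), RLE factors (0.0562), thinned libraries (0.0624), the added copies (0.056), no count filter (0.103) and without the zona litters (0.0936).

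Dnajc21, a J-domain protein of ribosome assembly, resembled Hspa4. It had 450, 261, 354, 387 and 353 CPM in E4 ICM, above the 111 to 223 CPM of D10 ICM, the 93.0 to 253 CPM of E4 TE and the 130 to 208 CPM of D10 TE. It fell by 1.20 ± 0.24 in the ICM (adjusted p = 0.00067, edgeR), while the TE difference was 0.07 ± 0.24 (0.874). The interaction was -1.27 ± 0.33 (0.0248). That call was lost in thinned libraries (0.0879) and on leaving out D10 ICM replicate 2, D10 ICM replicate 4, D10 TE replicates 1 and 5, E4 TE replicates 3 and 5 and E4 ICM replicate 1, each singly (up to 0.0582).

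Dnajb6, a suppressor of aggregation needed in the trophoblast lineage, was lower in ICM than in TE at both times. It had 285, 274, 229, 238 and 340 CPM in E4 ICM against 535, 411, 1222, 813 and 479 CPM in E4 TE, and 143, 196, 349, 168 and 283 CPM in D10 ICM against 763, 575, 1059, 568 and 634 CPM in D10 TE. The tissues did not overlap at either time. The differences were -1.36 ± 0.28 at E4 (adjusted p = 0.0006, edgeR) and -1.68 ± 0.28 at D10 (6.85e-05). Its 3′ end matches 7 annotated copies with 401 counts beside 3830, and with these added the values were -1.40 and -1.71.

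The promoters of the family were searched, on both strands, for the heat shock element, the site of heat shock factors, written as 3 alternating units of GAA and TTC with any 2 bases between units. The RefSeq promoter table (GRCm38.p6, 250 bases before to 50 after a start) held 62 of the 77 genes. Of the 15 others, those named here are Cct4, Dnajc11, Dnajc12, Dnajc18, Dnajc2, Dnajc22, Dnajc30, Dnajc5, Hsp90aa1, Hsp90ab1, Hspa13, Hspa8, Hspa9 and Hspb2. The element was found in 4 of the 62 (6.45%) and in 179 of all 27025 genes of the table (0.662%). Counted as promoters, 198 of 32851 held it (0.603%). A match is a description of letters and not a measured binding site.

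The 4 genes were Hspe1, Hspd1, Hsph1 and Dnajb6, which did not move alike in these samples and are printed for that reason, 5′ to 3′ on the strand of the gene, with the element in capitals. Hspe1 and Hspd1 share the stretch chr1:55088054-55088081, read on the plus and the minus strand, where 2 overlapping elements were found. The Hsph1 stretch is chr5:149636283-149636305 on the minus strand, after the annotated start, and the Dnajb6 stretch is chr5:29735847-29735869 on the plus strand. In the GENCODE annotation of the same build, the first stretch overlaps an exon of Hspd1, the second an exon of Hsph1, and the third an exon of Dnajb6 and, on the other strand, of Gm5129.
Hspe1: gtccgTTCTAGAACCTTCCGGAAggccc
Hspd1: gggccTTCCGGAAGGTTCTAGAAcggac
Hsph1: gcagaTTCTGGAAAGTTCtcctc
Dnajb6: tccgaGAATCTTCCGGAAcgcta

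Among the mitochondrial genes, all 8 of the list were tested. In the ICM 2 fell (Hspd1 and Hspa9) and 1 rose (Dnajc30), and in the TE 1 fell (Hspa9) and 1 rose (Dnajc30). Hspd1 and Hspe1 encode HSP60 and HSP10, the barrel and the lid of the mitochondrial chaperonin, and are transcribed away from each other from the shared stretch printed above. Hspd1 had 374, 426, 375, 449 and 581 CPM in E4 ICM and 204, 221, 161, 245 and 139 CPM in D10 ICM, without overlap, and fell by 1.16 ± 0.19 (adjusted p = 0.000114, edgeR). Hspe1 had 2098, 1262, 1353, 1526 and 1475 CPM in E4 ICM and 1412, 1205, 1019, 1066 and 2071 CPM in D10 ICM. These overlapped, and the difference was -0.19 ± 0.22 (0.576, 95% interval -0.61 to 0.24).

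The ratio of Hspe1 to Hspd1 CPM in a library needs no scaling between libraries. It was 5.61, 2.96, 3.6, 3.40 and 2.54 in E4 ICM and 6.91, 5.46, 6.34, 4.36 and 14.9 in D10 ICM. In the TE the medians were 4.24 at E4 and 3.90 at D10, with ranges of 3.09 to 4.65 and 3.71 to 7.43. In both tissues the times overlapped, and in the ICM 4 of the 5 E4 libraries lay under every D10 library. This ratio was chosen after its values were seen and was not tested. In the TE Hspd1 had 195 to 311 CPM at E4 and 158 to 218 CPM at D10 (-0.29 ± 0.19, adjusted p = 0.304, edgeR). The interaction for Hspd1 was -0.87 ± 0.27 (0.0628) and passed with litter as a block (-0.89, 0.036).

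Hspa9, the mitochondrial HSP70, had 512, 452, 682, 554 and 358 CPM in E4 TE and 343, 357, 267, 346 and 240 CPM in D10 TE, and fell by 0.73 ± 0.21 (adjusted p = 0.0121, edgeR). The groups touched without overlapping, as the highest D10 library had 357 CPM. In the ICM it had 405 to 676 CPM at E4 and 222 to 399 CPM at D10. The ICM difference of -0.58 ± 0.21 (0.0422) was lost without any 1 of 15 libraries (up to 0.163) and passed when the library left out was replicate 2 or 5 of E4 ICM, replicate 3 or 5 of E4 TE, or replicate 4 of D10 ICM. It was also lost with RLE factors (0.0527), the added copies (0.054), no count filter (0.152), thinned libraries (0.166) and without the zona litters (0.106).

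Dnajc30, a mitochondrial J-domain protein tied to ATP synthase, rose in both tissues. It had 8.60 to 19.0 CPM in E4 ICM and 23.2 to 65.1 CPM in D10 ICM, and 4.15 to 24.3 CPM in E4 TE and 38.3 to 59.1 CPM in D10 TE. The times did not overlap in either tissue, with differences of 1.57 ± 0.35 (adjusted p = 0.00207, edgeR) and 1.55 ± 0.35 (0.00204). On average it reached the level of the count filter in the D10 groups alone. Dnajc19, of the mitochondrial import motor, was lower in ICM than in TE, at 38.0 to 77.4 against 64.4 to 207 CPM at E4 (-1.23 ± 0.31, 0.00358), a call lost without the zona litters (0.1). At D10 the difference was -0.87 ± 0.29 (0.027), lost on leaving out any of D10 TE replicates 1, 4 and 5 and D10 ICM replicates 1 and 5 (up to 0.0799). Its 3′ end overlaps Fxr1 on the other strand, and whether counting used strand is not given in the sources used here. Dnaja3, the J-domain partner of Hspa9, stayed within 51.1 to 122 CPM in all libraries and passed no test.

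Of 9 tested mitochondrial partners, 1 fell in the ICM and 1 in the TE, and none rose. Timm44, which anchors mitochondrial HSP70 at the import pore, fell by 0.72 ± 0.23 in the ICM (adjusted p = 0.0247, edgeR). Atf5, a factor of the mitochondrial stress response, fell by 2.30 ± 0.65 in the TE (0.012).

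**Figure D3:**
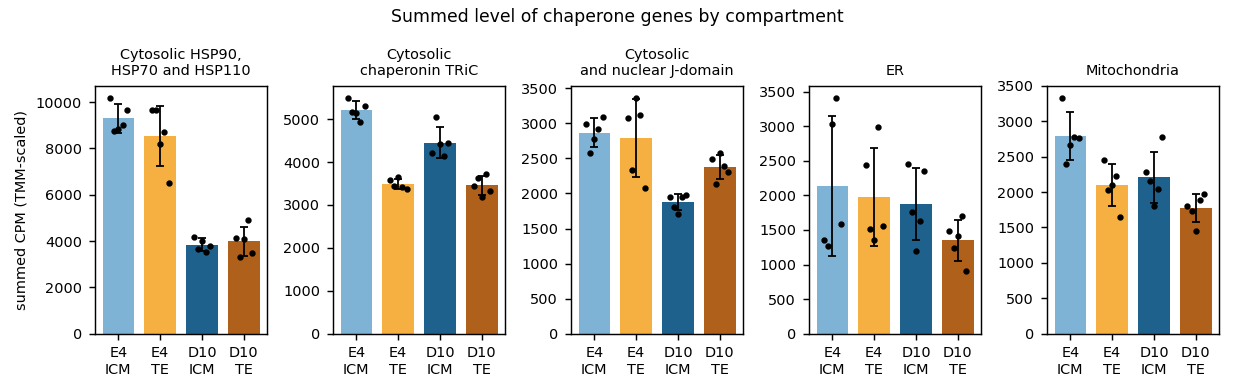
Summed level in CPM (vertical axes from 0) of all listed genes of 5 compartments, as mean (bars) ± SD with the 5 libraries as points. The cytosolic HSP90, HSP70 and HSP110 sum at D10 was 41.3% of E4 in the ICM and 46.7% in the TE, while the TRiC sum was 85.4% and 99.1%.

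The summed level of the ER genes differed between the times by less than its SD at E4 in either tissue. Of 11 tested of 14, 1 fell in the ICM (Dnajc25), and in the TE 1 fell (Hsp90b1) and 2 rose (Dnajc1 and Dnajc10). The Dnajc25 call (-1.0 ± 0.32, adjusted p = 0.0247, edgeR) was lost without any of D10 ICM replicates 1, 3 and 5 and E4 ICM replicates 2, 3 and 4 (up to 0.0608), and without the zona litters (0.0654). The sum of the 14 was 2132 ± 1012 CPM in E4 ICM, 1974 ± 712 CPM in E4 TE, 1880 ± 523 CPM in D10 ICM and 1349 ± 294 CPM in D10 TE. Hspa5, the ER HSP70 known as BiP, had 805, 575, 1821, 2152 and 907 CPM in E4 ICM and 1654, 1046, 609, 909 and 1658 CPM in D10 ICM. Its TE values were 1404, 614, 582, 1791 and 701 CPM at E4 and 783, 557, 662, 907 and 391 CPM at D10. All 4 groups overlapped and Hspa5 passed no test, with 95% intervals of the time difference from -0.81 to 0.61 in the ICM and from -1.34 to 0.09 in the TE.

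Within E4 ICM several ER genes were highest in the same libraries. Hsp90b1, the ER HSP90, had 228, 230, 665, 629 and 211 CPM there, Dnajb11 had 31.7, 54.8, 102, 112 and 55.9 CPM, and Hspa5 was likewise highest in replicates 3 and 4. Other ER genes were not, such as Dnajb12, highest in replicate 2, and Dnajb9 and Dnajb14, highest in replicate 5. The primitive endoderm markers summed to 1154, 1259, 2611, 2014 and 1669 CPM in the same order, so replicates 3 and 4 were highest there too. The part of these cells in the ER values was not tested. In the TE Hsp90b1 had 449, 394, 302, 651 and 379 CPM at E4 and 203, 190, 217, 255 and 126 CPM at D10, without overlap, and fell by 1.14 ± 0.30 (adjusted p = 0.00765, edgeR).

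Hspa5, Hsp90b1 and Dnajc3 carried the ER stress element, the site of the unfolded protein response, written as CCAAT, any 9 bases and CCACG on either strand. It was found in these 3 of 62 matched chaperone genes (4.84%), in 3 of 12 matched ER genes (25%) and in 37 of all 27025 genes (0.137%). The stretches are printed to show the element in the ER genes whose values are given here. They are chr2:34772020-34772048 on the plus strand for Hspa5, chr10:86705528-86705661 on the minus strand for Hsp90b1 with 2 elements, and chr14:118937822-118937850 on the plus strand for Dnajc3, with the element in capitals. The first overlaps an annotated exon of Hspa5.
Hspa5: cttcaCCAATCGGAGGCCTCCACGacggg
Hsp90b1: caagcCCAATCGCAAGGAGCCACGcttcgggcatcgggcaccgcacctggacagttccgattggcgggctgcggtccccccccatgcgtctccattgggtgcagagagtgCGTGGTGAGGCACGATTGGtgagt
Dnajc3: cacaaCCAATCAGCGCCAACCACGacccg

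Over time these 3 genes gave log2 differences of -0.10 ± 0.36, -0.69 ± 0.30 and 0.58 ± 0.30 in the ICM and of -0.63 ± 0.37, -1.14 ± 0.30 and -0.18 ± 0.31 in the TE, in the printed order. Dnajc3, which restrains the kinase PERK and binds BiP, lay at 19.0 to 141 CPM in E4 ICM and 72.0 to 132 CPM in D10 ICM. Dnajc1, an ER membrane J-domain protein, had 29.9 to 63.3 CPM in E4 TE and 80.2 to 97.9 CPM in D10 TE and rose there (0.95 ± 0.23, adjusted p = 0.0041, edgeR), a call lost in thinned libraries (0.257). In the ICM it had 34.4 to 55.8 CPM at E4 and 27.7 to 52.3 CPM at D10 (-0.24 ± 0.24, 0.519). The interaction of -1.19 ± 0.34 (0.0381) was lost without any 1 of 15 libraries (up to 0.109), all but D10 ICM replicates 1 and 4, E4 ICM replicate 5 and E4 TE replicates 1 and 3. It was also lost with DESeq2 (0.0585), in thinned libraries (0.49), with no count filter (0.212) and without the zona litters (0.0876). Dnajc1 overlaps Mllt10 on the other strand.

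Dnajb9, a BiP cochaperone, had 0 to 34.4 CPM in E4 ICM and 12.4 to 91.6 CPM in E4 TE (-1.28 ± 0.45, adjusted p = 0.0322, edgeR). On average it reached the level of the count filter in the TE groups alone, where it was higher at E4. The call was lost on leaving out any of E4 ICM replicates 1, 2 and 3, or replicate 4 of E4 TE (up to 0.256). Of 17 tested ER partners and genes of the unfolded protein response, 2 rose in the ICM (Xbp1 and Eif2ak3), and in the TE 1 rose (Eif2ak3) and 2 fell (Atf4 and P4hb). Xbp1, a transcription factor of that response, had 19.0, 36.6, 104, 53.8 and 64.5 CPM in E4 ICM and 190, 198, 55.4, 136 and 167 CPM in D10 ICM. These overlapped through D10 replicate 3, and the difference was 1.37 ± 0.36 (0.00654), with an interaction of 1.86 ± 0.50 (0.027). Eif2ak3, which encodes PERK, rose by 2.21 ± 0.46 in the ICM (0.00112) and by 3.39 ± 0.42 in the TE (2.09e-06). Atf4, made under PERK signalling, fell by 1.10 ± 0.28 in the TE (0.00606). Between the tissues at D10, 5 of these partners were higher in ICM (Creld2, Manf, Pdia6, Sdf2l1 and Xbp1) and Eif2ak3 was lower. Of all genes tested, 12.9% were higher there and 12.6% lower. Pdia6, a disulfide isomerase, was higher by 1.24 ± 0.27 (0.00122) and Sdf2l1, which works with BiP, by 1.46 ± 0.34 (0.00226).

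Small heat shock proteins hold unfolded proteins without ATP, and only Hspb1 of the 4 listed was tested. Hspb1 (chromosome 5, 135887919 to 135889563) had 38.0, 28.7, 241, 172 and 30.1 CPM in E4 ICM and 409, 588, 294, 769 and 334 CPM in D10 ICM, where every library lay above every E4 library. In TE libraries it had 11.5, 4.15, 21.9, 23.9 and 64.4 CPM at E4 and 16.4, 2.04, 0, 14.0 and 5.46 CPM at D10, 20 counts in all. It rose by 2.15 ± 0.48 in the ICM (adjusted p = 0.00188, edgeR), and the TE difference was -1.48 ± 0.81 (0.195). The interaction was 3.64 ± 0.94 (0.022) and was lost without E4 TE replicate 5 (0.0583).

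ICM exceeded TE in Hspb1 by 2.24 ± 0.62 at E4 (adjusted p = 0.00685, edgeR) and by 5.88 ± 0.63 at D10 (1.73e-07). The primitive endoderm marker sum moved with it: in D10 ICM it was 5248, 6831, 4831, 6953 and 4625 CPM for replicates 1 to 5, so that the highest 2 libraries were the same, replicates 4 and 2. In E4 ICM the highest 2 were replicates 3 and 4 for both. In the TE, replicate 5 of E4 and replicate 1 of D10 were the highest of their groups for both. D10 TE replicate 1 had 310 CPM of the markers and 16.4 CPM of Hspb1. Of the 5 primitive endoderm markers, only Col4a1 and Sparc passed as higher over time in the ICM. The part of primitive endoderm cells in the Hspb1 values was not tested. Hspb8, too low for the test, was on the same side, with 30 and 53 counts in E4 and D10 ICM against 6 and 3 in the TE.

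TRiC differed by tissue more than by time. All 9 genes of the list were tested, and 2 fell in the ICM (Cct2 and Tcp1), while in the TE Cct4 rose and Cct7 fell. The Cct7 call (-0.49 ± 0.17, adjusted p = 0.0397, edgeR) was lost without D10 TE replicate 1, 3 or 5 or E4 TE replicate 1, 2, 3 or 4 (up to 0.0833), with no count filter (0.282), in thinned libraries (0.0672) and without the zona litters (0.132). The sum was 5211 ± 211 CPM in E4 ICM, 4453 ± 362 CPM in D10 ICM, 3491 ± 119 CPM in E4 TE and 3460 ± 222 CPM in D10 TE. Every ICM library (4150 CPM or more) lay above every TE library (3724 CPM or less). Tcp1, the first subunit, had 74.4 to 125 CPM in E4 ICM and 37.1 to 99.8 CPM in D10 ICM (-0.76 ± 0.25, adjusted p = 0.0274, edgeR). That call was lost without E4 ICM replicate 2 or 3 or D10 ICM replicate 2, 3 or 5 (up to 0.105), in thinned libraries (0.171), with no count filter (0.108) and without the zona litters (0.095).

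The other subunits called over time were Cct2 in the ICM and Cct4 in the TE. Cct2 had 888, 825, 748, 755 and 757 CPM in E4 ICM and 494, 654, 582, 511 and 497 CPM in D10 ICM, without overlap (-0.53 ± 0.15, adjusted p = 0.0133, edgeR). It was lost in thinned libraries (0.114), with no count filter (0.204) and without the zona litters (0.137). Cct4 had 581, 597, 733, 592 and 687 CPM in E4 TE and 863, 1140, 1051, 856 and 948 CPM in D10 TE, and rose by 0.61 ± 0.17 (0.0132). That call was lost with no count filter (0.117) and without the zona litters (0.146). Whether the changes of single subunits differ from each other was not tested. Of 9 tested genes of prefoldin and other TRiC partners, Pfdn4 fell in both tissues (-0.95 ± 0.31 in the ICM, 0.026, and -1.15 ± 0.29 in the TE, 0.00592), Pfdn5 rose in the ICM (0.60 ± 0.19, 0.0256) and Pfdn1 fell in the TE (-0.68 ± 0.23, 0.0319).

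Between the tissues at E4, 16 of the 50 tested chaperone genes were higher in ICM and 5 lower, where 15.8% of all genes were higher and 15.4% lower, with medians of 0.15 and 0.03. At D10 the counts were 8 and 5, where 12.9% and 12.6% of all genes were called, with medians of 0.06 and 0.01. TRiC gave 6 of the 16 at E4 (Cct2, Cct3, Cct4, Cct5, Cct6a and Cct8) and 4 of the 8 at D10 (Cct3, Cct6a, Cct7 and Cct8). Several of these calls were not stable. At E4, those of Cct2, Cct4 and Cct8 were lost with no count filter (0.261, 0.0557 and 0.156, adjusted p by edgeR) and without the zona litters (0.121, 0.0943 and 0.0811). Cct2 was also lost in thinned libraries (0.0567) and on leaving out any of E4 TE replicates 4 and 5 and E4 ICM replicates 1 and 2 (up to 0.0705). At D10, Cct6a was lost without D10 TE replicate 3 (0.0634) and with no count filter (0.118), and Cct7 without D10 ICM replicate 2 or D10 TE replicate 3 (up to 0.0681) and with no count filter (0.178). Cct8 was lost at D10 on leaving out any of D10 TE replicates 2, 3 and 5, D10 ICM replicates 1 to 3 and E4 ICM replicate 4 (up to 0.111), and with no count filter (0.308).

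Cct3 had 640, 460, 565, 562 and 516 CPM in E4 ICM against 230, 315, 260, 277 and 351 CPM in E4 TE, without overlap (0.94 ± 0.18, adjusted p = 0.000294, edgeR). At D10 it had 409 to 473 CPM against 221 to 409 CPM (0.57 ± 0.18, 0.0176), a call lost without D10 TE replicate 3 (0.058), in thinned libraries (0.0714) and with no count filter (0.143). Cct6a had 933 to 1078 CPM in E4 ICM against 597 to 691 CPM in E4 TE (0.66 ± 0.19, 0.00823), lost with no count filter (0.0795) and without the zona litters (0.11). The E4 call of Cct5 (0.45 ± 0.17, 0.0396) was lost without any 1 of 19 libraries, D10 ICM replicate 2 being the exception (up to 0.124).

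Cct6b, the copy of Cct6a known from testis, went the other way. It had 44.4, 15.7, 6.95, 2.07 and 12.9 CPM in E4 ICM against 69.1, 49.8, 105, 63.8 and 35.8 CPM in E4 TE, overlapping through E4 ICM replicate 1. At D10 it had 14.3, 9.89, 22.2, 23.1 and 0 CPM in ICM against 67.5, 97.9, 213, 108 and 120 CPM in TE, without overlap. The differences were -2.38 ± 0.52 (adjusted p = 0.000994, edgeR) and -2.97 ± 0.46 (2.09e-05). On average it reached the level of the count filter in the TE groups alone.

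**Figure D4:**
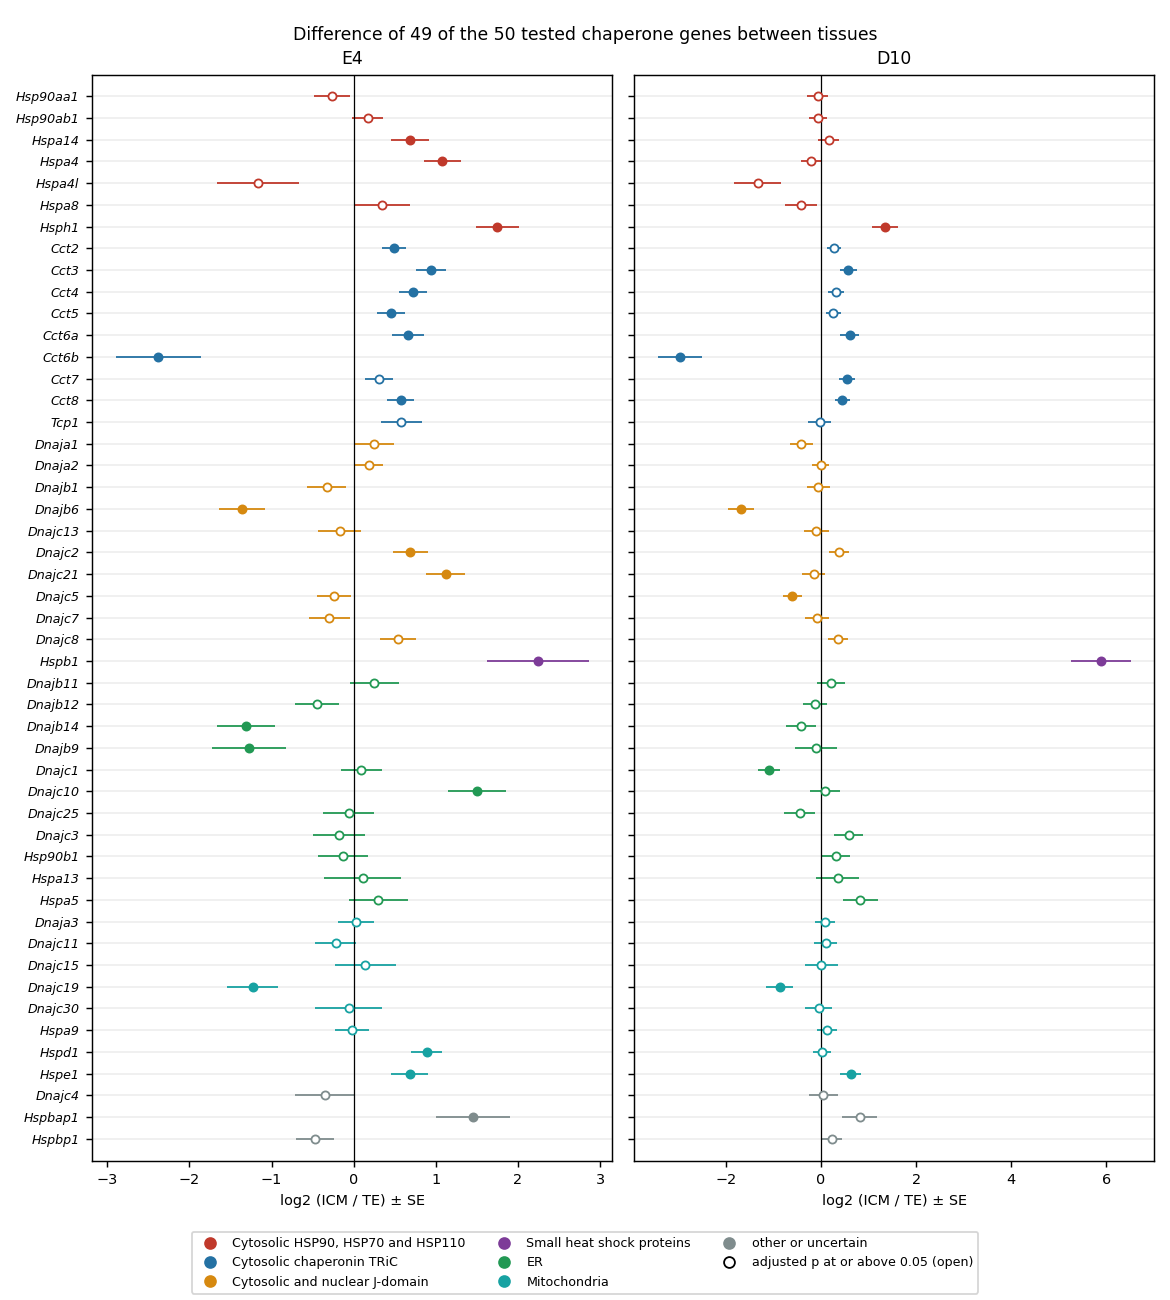
Log2 difference between ICM and TE (horizontal axis, ± SE) of 49 of the 50 tested chaperone genes at E4 (left) and D10 (right), grouped by compartment, with filled points for an adjusted p under 0.05. The TRiC points other than Cct6b lie between 0.31 and 0.94 at E4 and between -0.03 and 0.60 at D10, and Hspb1 at D10 lies farthest right, at 5.88.

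Several tissue differences at E4 were held by the genes that later fell in the ICM. Hspa4, Dnajc21, Hspd1 and Hsph1 were higher in E4 ICM than in E4 TE by 1.08 ± 0.23 (adjusted p = 0.000961, edgeR), 1.12 ± 0.24 (0.000784), 0.89 ± 0.19 (0.000964) and 1.75 ± 0.26. At D10 the first 3 gave -0.20 ± 0.23 (0.58), -0.15 ± 0.24 (0.7) and 0.02 ± 0.19 (0.965). These comparisons share the E4 and D10 ICM libraries with the time comparisons, so they are not separate evidence. The cytosolic HSP90 genes passed no test between the tissues, at -0.26 ± 0.22 and -0.07 ± 0.22 for Hsp90aa1 and 0.17 ± 0.19 and -0.07 ± 0.19 for Hsp90ab1.

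The other chaperone genes that were called are given with their log2 difference and edgeR's adjusted p. At E4 the ICM was higher than the TE in Hspe1 (0.68 ± 0.22, 0.0186), in Dnajc10, an ER disulfide reductase (1.5 ± 0.35, 0.00207), in Hspbap1 (1.45 ± 0.45, 0.0158), in Hspa14, a ribosome-associated HSP70 (0.69 ± 0.23, 0.0248), and in Dnajc2, a ribosome-bound J-domain protein (0.69 ± 0.21, 0.0147). It was lower in Dnajb14, an ER membrane J-domain protein (-1.31 ± 0.35, 0.00557). Hspbap1 on average reached the level of the count filter in the ICM groups alone, and its call was lost without the zona litters (0.0758). The Hspa14 call was lost on leaving out any of E4 TE replicates 1 and 4 and E4 ICM replicates 3 and 4 (up to 0.109), with no count filter (0.098), in thinned libraries (0.165) and without the zona litters (0.0704). At D10 Hspe1 was higher in ICM (0.63 ± 0.22, 0.0347) and Dnajc5, the synaptic vesicle J-domain protein, was lower (-0.60 ± 0.20, 0.0276). The Hspe1 calls were lost without E4 ICM replicate 1 and E4 TE replicates 3 and 5 at E4 (up to 0.0825), and at D10 without D10 ICM replicates 1 and 5 and D10 TE replicates 1 to 4 (up to 0.126), each left out singly. The Dnajc2 call was lost without E4 ICM replicates 1 and 3 and E4 TE replicate 5 (up to 0.0599), and that of Dnajc5 without D10 ICM replicates 2 and 3 and D10 TE replicates 3 and 4 (up to 0.0931). Over time, Dnajc10 rose in the TE (1.00 ± 0.35, 0.0438), a call lost without any 1 of 14 libraries (up to 0.121), with no count filter (0.0541) and in thinned libraries (0.501). With no count filter the calls of Hspe1 at E4 (0.0761) and D10 (0.125), Dnajc2 (0.0817) and Dnajc5 (0.134) were lost too. So were those of Hspe1 at E4 (0.0912) and Dnajc2 (0.0519) without the zona litters, and that of Dnajc5 in thinned libraries (0.137).

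The interaction was called for 4 chaperone genes, 1 higher (Hspb1) and 3 lower (Hspa4, Dnajc21 and Dnajc1), where 3.15% of all genes were higher and 1.83% lower. With litter as a block, which ties the ICM and TE libraries of the same litter, 311 of 6943 genes were higher and 185 lower. Of the chaperone genes, 2 were higher and 5 lower. Those added as lower were Hspd1 (-0.89, adjusted p = 0.036, edgeR) and Dnajc10 (-1.49, 0.0323). With the block, Hspa4l passed as lower in ICM at E4 (-1.36, 0.0359) and at D10 (-1.38, 0.0383), and Dnajc8 as higher at E4 (0.60, 0.0412). Hspa4l on average reached the level of the count filter in E4 TE alone, the group where it was highest.

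**Figure D5:**
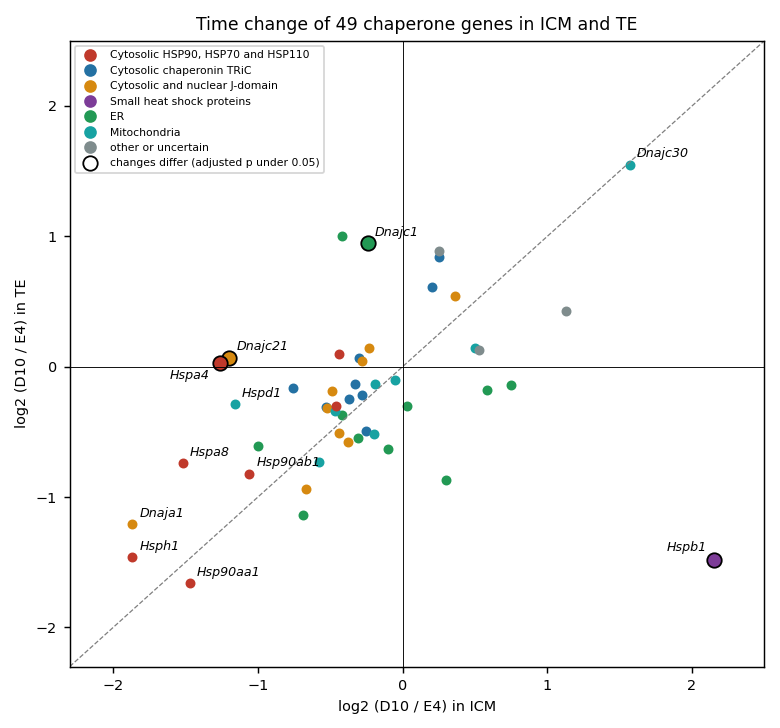
Log2 difference between D10 and E4 of 49 of the 50 tested chaperone genes in the ICM (horizontal axis) and the TE (vertical axis), coloured by compartment, with a dashed line of equal change and a black ring where the changes differed at an adjusted p under 0.05. Hsp90aa1, Hsp90ab1, Hsph1 and Dnaja1 lie below 0 on both axes, Hspa4 and Dnajc21 near 0 in the TE, and Hspb1 at 2.15 and -1.48.

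Hspbp1 stood against the fall of the cytosolic genes. It had 95.1, 60.1, 116, 60.0 and 73.1 CPM in E4 ICM and 144 to 204 CPM in the 5 libraries of D10 ICM, without overlap, and rose by 1.13 ± 0.22 (adjusted p = 0.000661, edgeR). In the TE it had 69.7 to 138 CPM at E4 and 131 to 178 CPM at D10 (0.43 ± 0.22, 0.161). In all, 13 chaperone genes had a near-identical copy at the 3′ end, and 8 a gene on the other strand over the last 500 bases, among them Dnaja1 (Smu1), Tcp1 (Acat3) and Cct8 (Usp16). Of the 50 tested, 37 were called in at least 1 comparison and 13 in none. The share of all genes called in at least 1 comparison was not determined, so this count cannot be read as particular to chaperone genes.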

How the data were processed

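The authors deposited raw counts per gene and barcoded library, made by BRB-seq, in which replicates receive barcodes at reverse transcription and are amplified together. Per the submitters' processing notes, featureCounts 2.0.1, HISAT2 2.2.1, Trim Galore 0.6.7 and UMI-tools were used, with GRCm38 and GRCh38 as builds. Not given in the sources used here: UMI collapsing, strand and annotation. The labels do not say how many embryos a library holds. Within a group each library came from another litter, so p-values reflect only the spread among libraries. In that spread, differences between litters and technical differences cannot be told apart. 

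All 20 libraries entered 1 fit of 4 groups by edgeR 4.0.16 in R 4.3.3 (TMM factors, filterByExpr with a minimum count of 10, quasi-likelihood test), with Benjamini-Hochberg adjustment over the 6943 genes tested and a threshold of 0.05. The fit was tested on simulated data. Within every group the libraries differed by more than counting noise (lowest chi-square per degree of freedom 2.57). Alternatives were RLE factors, DESeq2 1.42.0, no count filter, a minimum count of 30, libraries thinned to 144276 counts, leaving out each library, leaving out the zona litters, a litter block, and adding the counts of copies (at least 95% identity over 81 of the last 300 bases, chosen after seeing the data). ICM and TE libraries of the same number come from the same litter within a time, per the deposited barcode list. Their deviations from group means correlated across genes at 0.104 to 0.263 at E4 and -0.0302 to 0.293 at D10.

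The members, the gene lists, the compartments (by textbook knowledge) and the markers were chosen with earlier results of these data known. The text gives library values or their range for a core of 20 members and for up to 3 members of smallest adjusted p in each direction of a comparison. For some of these members it gives only the values of some groups, or only counts. It names other called members with their difference, and up to 3 genes per partner list and comparison, or all where 5 or fewer were counted. Some genes that enter the counts are not reported here by name or drawn.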

Additional observations from a re-analysis of the deposited data

Results flagged for a closer look

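The change over time differed between ICM and TE for 4 chaperone genes, by the test of the difference itself (ICM minus TE, log2): Hspb1 at 3.64, Hspa4 at -1.29, Dnajc21 at -1.27 and Dnajc1 at -1.19. For 2 of the named chaperone genes a single library stood apart from the other 4 of its group, with a gap to the nearest of more than 0.71 of the group's range. Hsph1 had 365 CPM in E4 TE replicate 4. Hspa1a, with only 13 counts over all libraries, had 7.30 CPM in E4 TE replicate 3, where 3 counts make 6.43 CPM before TMM. These were 2 of 120 groups examined, and chance flags about 1 in 20.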

How the results depend on the processing

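Of 68 calls of a chaperone gene in a comparison, 35 passed under every alternative that gave a value, 33 were lost under at least 1, and 0 reversed. Losses numbered 23 of 68 without the count filter, 14 of 61 in thinned libraries, 20 of 55 without the zona litters, 3 of 66 with copies added, and 2 of 68 each with RLE factors and with DESeq2. The stricter count minimum lost 0 of 56. The block by litter lost 0 of 38, and changed no other call than those given above. The cause of these losses was not tested.

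Without the count filter 75 chaperone genes were tested. The ICM had 9 lower over time, the TE 2 higher, and E4 had 9 higher in ICM. Of all 20558 genes tested then, 688, 1050 and 1233 were called, in that order. With the stricter minimum 37 chaperone genes were tested. The TE had 2 higher over time and E4 had 3 lower in ICM, where 531 and 744 of all 3504 genes were called. In thinned libraries 41 chaperone genes were tested. The TE had 1 higher over time, E4 and D10 had 3 lower in ICM each, and the interaction had 1 lower. Of all 3851 genes tested then, 414, 639, 455 and 67 were called, in that order. Without the zona litters 53 chaperone genes were tested. The ICM had 9 lower over time and E4 had 8 higher in ICM, where 379 and 794 of all 7623 genes were called. With the replicate block (litter) the interaction had 2 higher and 5 lower, where 311 and 185 of all 6943 genes were called.

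Leaving out single libraries left 50 to 54 chaperone genes among 7085 to 7329 genes tested. It gave 3 to 4 higher and 9 to 15 lower in the ICM over time. In the TE it gave 3 to 4 higher and 8 to 12 lower. Of all genes, 839 to 1049 were higher and 487 to 685 lower in the ICM. The TE figures were 674 to 855 and 604 to 781. Between the tissues, 12 to 16 chaperone genes were higher and 4 to 6 lower in ICM at E4. At D10 these counts were 4 to 10 and 3 to 6. Of all genes, 860 to 1096 were higher and 1000 to 1180 lower at E4. The D10 figures were 786 to 1001 and 710 to 899. The interaction had 0 to 2 higher and 0 to 4 lower, where 194 to 256 of all genes were higher and 83 to 128 lower. The ICM count of 9 came without D10 ICM replicate 3 or 5, and the D10 counts of 4 and 3 without D10 TE replicate 3 and replicate 4. For the interaction, 0 higher came without E4 TE replicate 5, 2 higher without E4 ICM replicate 4, 0 lower without D10 ICM replicate 2 or D10 TE replicate 1, and 1 lower without D10 TE replicate 4 or 5, E4 ICM replicate 1 or E4 TE replicate 5. Depth limits the 27 untested genes, with at most 133 counts each.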
